A study of Mus musculus with 12 samples.

Results

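A set of 9 complement genes were followed in tumours of the mouse pancreatic cancer line mT3-2D and in the line itself: the regulators Serping1, Cfi, Cd55, Cd59b and C1qbp, the lectin pathway protease genes Masp1 and Masp2, and the terminal components C6 and C7. They were chosen by name and are 9 of 750 genes on an nCounter panel of mouse cancer immunology genes from NanoString, a method that counts barcoded probes hybridised to total RNA without amplification. Each of the 9 names matched 1 row of the deposited table. The groups were 5 subcutaneous mT3-2D tumours from SCID hosts (labelled immunodeficient), 5 from WT hosts (labelled immunocompetent) and 2 samples of the cultured line. SCID is a severe combined immunodeficiency of lymphocytes. The line is labelled as a murine KPC line, after a mouse model of pancreatic cancer, and every tumour was grown from this 1 line, so it stands for 1 source of tumour cells. The labels used here give no strain, age or sex for the hosts. The tumours were whole tissue, so a gene's level depends on which cells a tumour held, and fewer cells of a type cannot be told apart from less RNA per cell.

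Complement is a cascade of plasma proteins that is started by antibody-bound C1, by lectins that bind sugars, or by slow spontaneous activation of C3. All routes meet at enzymes that cleave C3 and C5, and end in a pore built from C5b, C6, C7, C8 and C9 in the target membrane. Host cells limit the cascade with inhibitors that are secreted, such as C1 inhibitor and factor I, or held in the membrane, such as CD55 and CD59. The liver makes most plasma complement, and stromal, myeloid and epithelial cells make parts of it locally.

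Depth was 368925 to 558445 probe counts per sample. The counts of WT tumours 2 and 3 were nearly those of 1 library measured again, though their titles carry different numbers. Their chi-square divided by its degrees of freedom was 1.20, where the other 19 pairs of tumours within a host gave 17.1 to 84.5. The pair was therefore averaged and counted as 1 sample, which leaves n = 5 SCID tumours, n = 4 WT tumours and n = 2 line samples. It is not known if a sample was run again or mislabelled, and settings that use title numbers take the titles as right. The 2 line samples gave 1.64 on the same measure, also near that of a repeat measurement, but were kept as n = 2. Their spread may be smaller than that between separate cultures, and p-values against the line count them as 2 independent samples. WT tumour 1 lay far from the other WT tumours in Cfi and Cd55, and results of these genes are also given without it. WT tumours 3 to 5 share 1 number in their titles, as do SCID tumours 1 and 2 and SCID tumours 3 and 4. Whether each tumour had its own host animal is not given in the labels, and p-values reflect the spread among these samples, which may in part be technical. Levels are log2 of the authors' normalized values. A gene was taken as detected in a sample above 37.05 counts, the 95th percentile of 37 lymphocyte genes in the cultured line, which lies between 4.69 and 5.65 on the log2 scale in different samples.

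Serping1, Cfi, Cd55 and C1qbp were detected in each of the 10 tumours, and the last 3 of these also in both line samples. Masp1 was detected in both line samples and in WT tumours 2, 3 and 5, and C6 in WT tumours 1, 3, 4 and 5. Cd59b, Masp2 and C7 were at background in each of the 12 samples. Between hosts, 1 of the 9 genes passed the test (limma, adjusted p under 0.05 over all genes), beside 15.9% of the 750 genes measured: C6 was lower in SCID tumours. Against the line 5 of the 9 passed for each host, beside 54.4% of all genes for SCID and 69.7% for WT tumours: Serping1 was much higher and Masp1 and C1qbp were lower in tumours of both hosts.

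**Figure D1:**
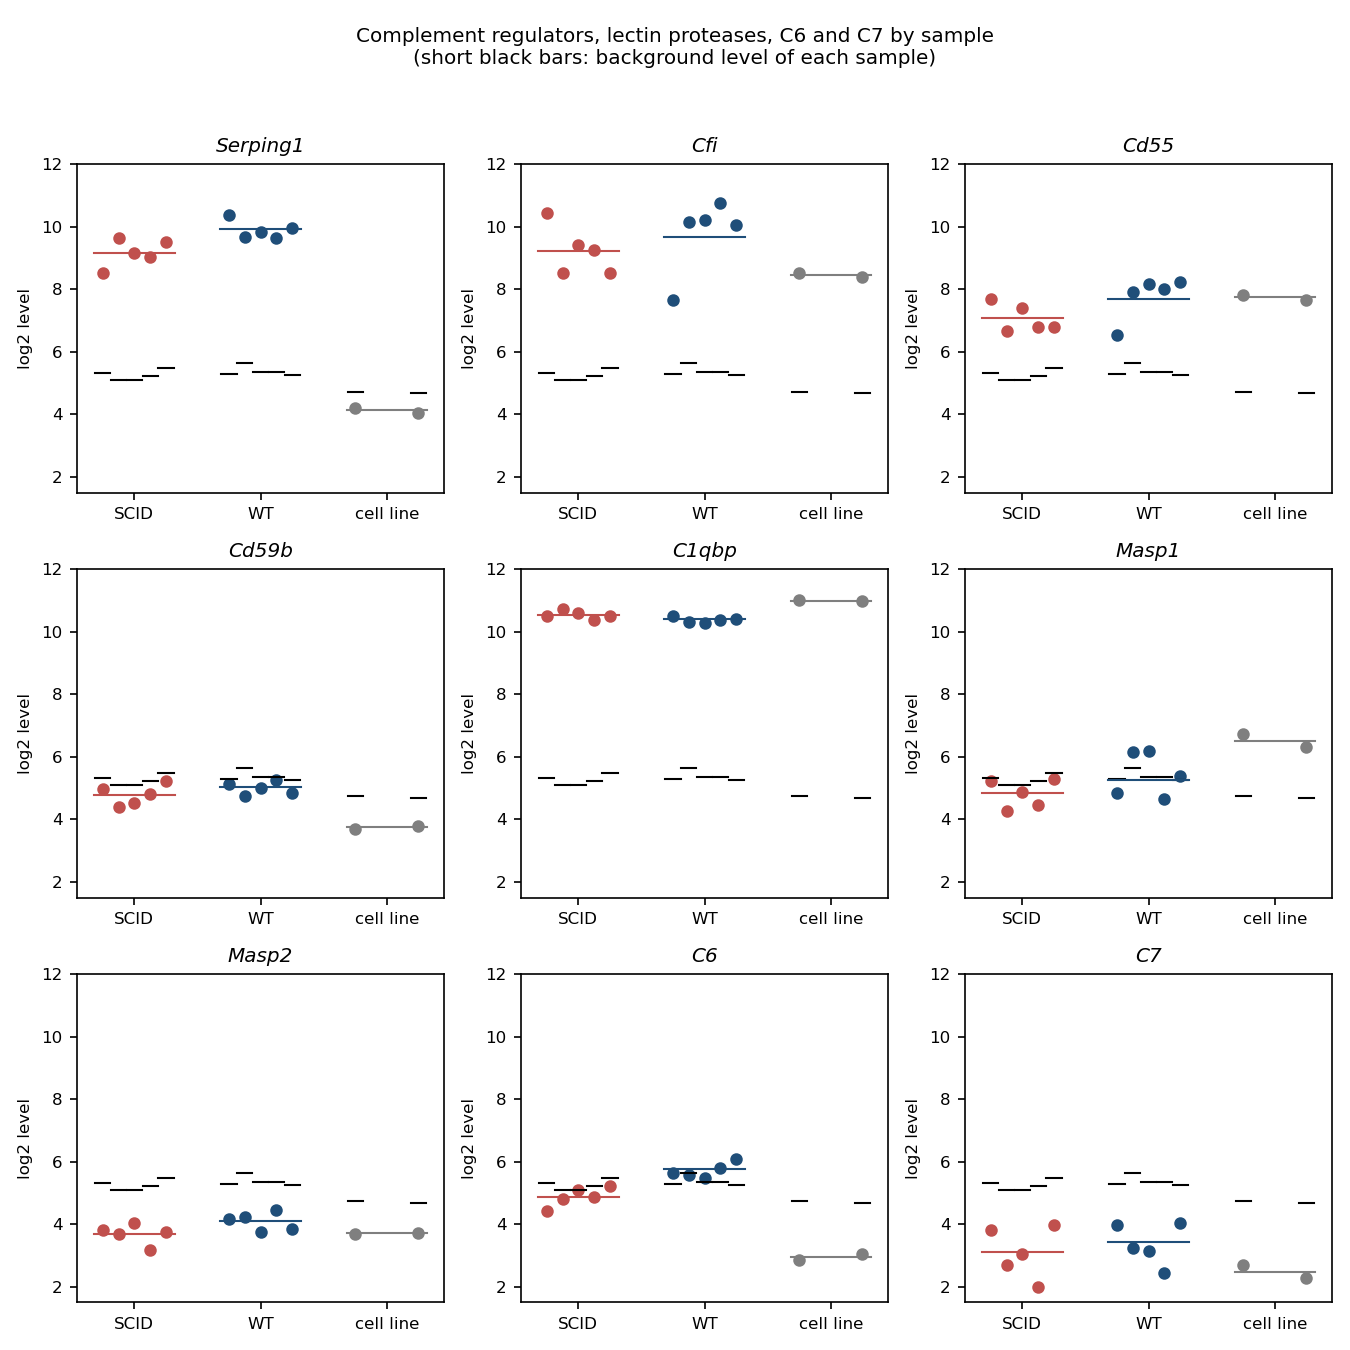
Log2 level of each of the 9 genes (vertical axis) in SCID tumours, WT tumours and the cultured line, 1 point per sample in order of replicate number, with a line at the group mean (WT tumours 2 and 3 counted once) and a short black bar at each sample's background level. Serping1 lies between 8.52 and 10.38 in tumours and at 4.06 and 4.22 in the line, and the points of Cd59b, Masp2 and C7 lie below their bars in every sample.

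Promoter windows of the detected genes are shown where the RefSeq promoter table holds them. It holds none for Serping1, Cfi or Masp1, which carry much of the difference from the line and of the tumour-to-tumour variation described below. The table holds windows for 6 of the 9 genes, and 3 of the 6 were detected. Each window runs from 250 bases before an annotated start to 50 after it, in GRCm38.p6, printed 5′ to 3′ on the gene's strand. Capitals mark the matches of 5 motifs searched on both strands.
C6 (chr15:4726960-4727259, plus strand): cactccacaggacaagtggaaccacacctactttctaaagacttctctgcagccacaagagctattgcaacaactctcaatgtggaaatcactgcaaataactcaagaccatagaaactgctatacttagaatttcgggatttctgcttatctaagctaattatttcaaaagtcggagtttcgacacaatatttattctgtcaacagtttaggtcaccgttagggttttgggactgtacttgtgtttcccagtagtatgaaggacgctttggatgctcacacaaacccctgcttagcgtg
Cd55 (chr1:130462695-130462994, minus strand): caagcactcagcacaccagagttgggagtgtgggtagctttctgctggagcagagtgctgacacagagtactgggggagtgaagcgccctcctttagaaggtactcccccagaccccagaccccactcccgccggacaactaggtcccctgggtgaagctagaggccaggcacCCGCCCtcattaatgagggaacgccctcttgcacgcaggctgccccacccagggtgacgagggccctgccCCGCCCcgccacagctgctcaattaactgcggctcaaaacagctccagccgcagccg
C1qbp (chr11:70982977-70983276, minus strand): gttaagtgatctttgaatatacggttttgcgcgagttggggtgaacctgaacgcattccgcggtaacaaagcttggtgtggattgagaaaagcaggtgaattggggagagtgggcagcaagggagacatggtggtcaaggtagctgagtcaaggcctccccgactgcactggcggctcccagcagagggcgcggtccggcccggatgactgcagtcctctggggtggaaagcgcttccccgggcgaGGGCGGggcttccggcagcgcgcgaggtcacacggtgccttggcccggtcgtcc
The motifs were GAS (TTCNNNGAA), the E-box (CACGTG), the GC box (GGGCGG) and, given by name, ISRE and NF-kappaB. The GC box had 2 matches in the Cd55 window, 1 in the C1qbp window and 0 in the C6 window, and 35.7% of all 32851 windows of the table hold it. The other motifs had 0 matches in these 3 windows, against 8.3% of all windows for GAS, 3.44% for ISRE, 7.15% for the E-box and 0.411% for NF-kappaB. The C6 window held 41.7% G and C, the Cd55 window 63.3% and the C1qbp window 62.0%, beside a median of 52.7% over the table. A match describes letters in this window and not a site of binding.

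Serping1 encodes C1 inhibitor, a secreted serpin that blocks C1r, C1s and the lectin pathway proteases. Its log2 level was 8.52, 9.63, 9.17, 9.04 and 9.52 in SCID tumours 1 to 5, against 10.38, 9.68, 9.85, 9.63 and 9.95 in WT tumours 1 to 5. In the line it was 4.22 and 4.06, from 26 and 24 counts, below background. Every tumour of either host thus stood far above the line, and SCID tumours 1, 3, 4 and 5 lay below every WT tumour. Serping1 was at least 22.1-fold higher in SCID tumours than in the line (limma log2 difference 5.04, SE 0.30, adjusted p = 1.53e-07), and at least 37.3-fold higher in WT tumours than in the line (5.79, SE 0.31, adjusted p = 4.93e-08). These bounds hold for the deposited scale. With TMM factors (trimmed mean of log ratios) the log2 differences were 4.27 for SCID and 4.70 for WT tumours, and after scaling to the median of all genes 3.03 and 3.19.

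The 9 fibroblast and matrix markers were all higher in tumours of both hosts than in the line, with summed levels of 30600 to 58100 in SCID tumours, 35500 to 61200 in WT tumours and 4440 in the line. The 8 endothelial markers and the 7 pan-leukocyte markers were all higher as well, and none of these 15 was detected in the line. The part of these cells in the Serping1 result was not tested.

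Between hosts, Serping1 averaged 9.18 ± 0.44 in SCID tumours (SD, n = 5) and 9.93 ± 0.33 in WT tumours (SD, n = 4). The log2 difference of -0.75 (SE 0.25, 95% interval -1.32 to -0.19) missed the threshold (limma adjusted p = 0.0687). The difference was -0.44 with TMM factors (adjusted p = 0.296) and -0.15 after median scaling (adjusted p = 0.687). It passed with WT tumours 2 and 3 as separate samples (adjusted p = 0.0465), though not when that fit had the title number as a random block (0.0539) or the series of title numbers as a block (0.0584). It also passed without SCID tumour 5 (0.0484; the other samples left out in turn gave up to 0.152) and without SCID tumour 5 and WT tumour 2, whose titles carry another series of numbers (0.0436), and an exact permutation test of this 1 gene gave p = 0.0397 (two-sided, smallest possible 0.0079).

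Cfi encodes factor I, the plasma protease that cleaves C3b and C4b with the help of cofactors. Its level was 10.44, 8.52, 9.42, 9.27 and 8.54 in SCID tumours 1 to 5, against 7.65, 10.16, 10.23, 10.76 and 10.06 in WT tumours 1 to 5. The line had 8.51 and 8.38. WT tumour 1 was the lowest of the 12 samples, while the other WT tumours were among the highest. Cfi varied more between tumours than most genes: its SD was 0.79 in SCID tumours and 1.38 in WT tumours, larger than that of 94.3% and 98.6% of the 441 genes detected in at least 7 of the 9 tumour values.

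With this spread, Cfi did not pass in any comparison. The log2 difference was -0.43 (SE 0.61, adjusted p = 0.664) for SCID against WT tumours, 0.79 (SE 0.73, adjusted p = 0.372) for SCID tumours against the line and 1.22 (SE 0.76, adjusted p = 0.168) for WT tumours against the line. The 5 SCID tumours lay above both line samples, SCID tumour 2 only barely (8.515 against 8.514 in line sample 1). The median difference of SCID tumours from the line over all genes was 0.81, near that of Cfi. After median scaling the Cfi difference was -1.21 (limma adjusted p = 0.131). Without WT tumour 1 the difference of WT tumours from the line was 1.89 (adjusted p = 0.0069), and that of SCID from WT tumours was -1.10 (adjusted p = 0.0996). WT tumour 1 was picked out by these same Cfi values and those of Cd55, and no other single sample left out gave a call of Cfi. Without WT tumour 4, the highest, the difference of SCID from WT tumours was -0.07 (adjusted p = 0.963).

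Cd55 encodes decay-accelerating factor, a membrane protein that breaks up the enzymes that cleave C3 and C5. Its level was 7.70, 6.68, 7.41, 6.80 and 6.79 in SCID tumours 1 to 5, against 6.53, 7.92, 8.16, 8.001 and 8.25 in WT tumours 1 to 5. The line had 7.83 and 7.66. WT tumours 2 to 5 lay above every SCID tumour, whereas WT tumour 1 lay below them. The groups averaged 7.07 ± 0.45 in SCID tumours (SD, n = 5), 7.71 ± 0.79 in WT tumours (SD, n = 4) and 7.75 ± 0.12 in the line (SD, n = 2).

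No comparison of Cd55 passed over all samples on the deposited scale. SCID tumours differed from WT tumours by -0.63 (SE 0.37, 95% interval -1.44 to 0.18, adjusted p = 0.259), and by -1.02 without WT tumour 1 (adjusted p = 0.0253). WT tumour 1 was picked out by these same Cd55 values, and no other single sample left out gave a call. Without WT tumour 5, the highest, the difference was -0.45 (limma adjusted p = 0.527). The difference from the line was -0.67 (SE 0.44, adjusted p = 0.206) for SCID tumours and -0.04 (SE 0.45, adjusted p = 0.936) for WT tumours. Without WT tumour 1 the WT difference from the line was 0.35 (adjusted p = 0.323). Against the line Cd55 was lower after median scaling, with log2 differences of -2.68 in SCID tumours (adjusted p = 0.000122) and -2.65 in WT tumours (0.000142), and with TMM factors they were -1.38 in SCID tumours (0.0206) and -1.07 in WT tumours (0.0605, not called).

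Cfi, Cd55 and Serping1 varied together among tumours of one host. Over the 9 tumour values, taken as deviations from the host mean, Cfi and Cd55 moved in the same direction, with Pearson's r = 0.93 and Spearman's rho = 0.88 (exact permutation within hosts, two-sided p = 0.0115 and 0.0135, adjusted p = 0.0344 and 0.0406 over the 6 pairs of detected genes). Cfi and Serping1 moved in opposite directions, with r = -0.89 and rho = -0.92 (exact permutation p = 0.00104 for each, adjusted p = 0.00625). Cd55 and Serping1 had r = -0.76 and rho = -0.73 (exact permutation p = 0.0212 and 0.0448, adjusted p = 0.0424 and 0.0896). Without the 2 tumours farthest from the median on the first gene, r was 0.79 for Cfi with Cd55 and -0.93 for Cfi with Serping1 (both without SCID tumour 1 and WT tumour 1), and -0.73 for Serping1 with Cd55 (without SCID tumours 1 and 2). The 3 pairs with C1qbp did not pass (adjusted p = 0.169, 0.169 and 0.29 for r).

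Sums of epithelial tumour cell markers and of fibroblast and matrix markers are set beside this pattern, with no test. The cultured line had epithelial sums of 14100 and 14200, within the range of the tumours, so this sum does not measure the share of tumour cells. WT tumour 1, with the lowest Cfi and the highest Serping1, had the lowest summed level of the 6 epithelial tumour cell markers (12900) and the highest of the 9 fibroblast and matrix markers (61200). SCID tumours 2 and 5, low in Cfi among the SCID tumours, had epithelial sums of 13500 and 14100 and fibroblast sums of 50900 and 58100. SCID tumour 1, high in Cfi and low in Serping1, had 20700 and 30600, and WT tumour 4, with the highest Cfi, had 23400 and 35500. WT tumour 5, with Cfi at 10.06, was high in both sums, at 19500 and 52100. SCID tumours 3 and 4 had epithelial sums of 19500 and 15000 and fibroblast sums of 35000 and 39900. In WT tumours 2 and 3 the epithelial sums were 18000 and 18800 and the fibroblast sums 36300 and 36800. Other lists differed between these tumours as well. Neutrophil sums were 251 in WT tumour 1 and 919 in WT tumour 4, and endothelial sums 809 in SCID tumour 1 and 1660 in WT tumour 1. The part of the cell mixture in these levels was not tested.

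**Figure D2:**
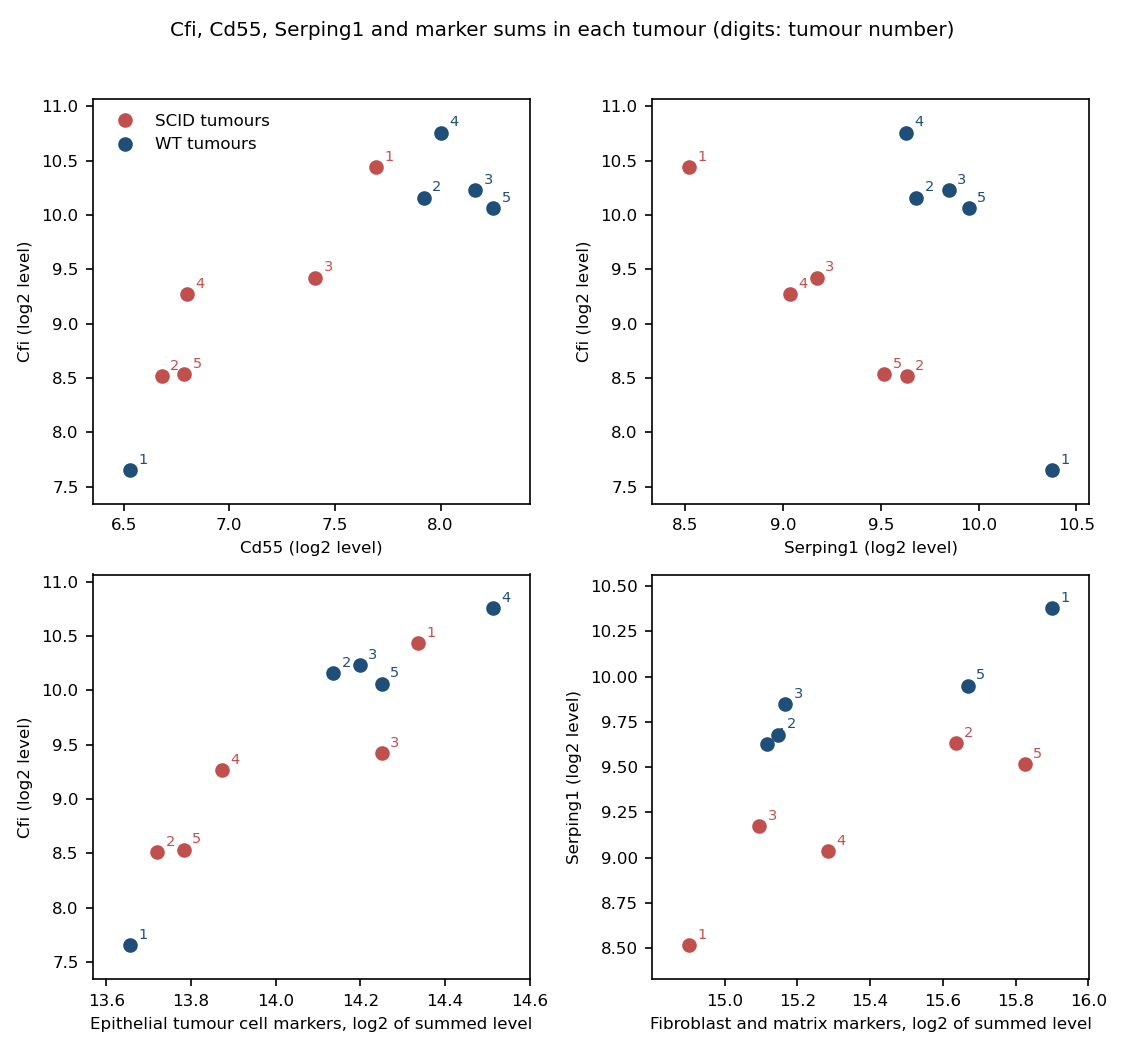
Each point is 1 of the 10 tumours, coloured by host and numbered by replicate: Cfi against Cd55 and against Serping1 (upper panels, log2 levels), Cfi against the log2 summed level of epithelial tumour cell markers, and Serping1 against that of fibroblast and matrix markers (lower panels). WT tumour 1 lies at the low end of Cfi (7.65) and Cd55 (6.53) and at the high end of Serping1 (10.38).

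By the same measure, the genes named as most like Cfi were Lbp (r = 0.98) and Cxcl5 (0.97), over 9 tumour values and among 441 genes. Lbp encodes the lipopolysaccharide-binding protein and Cxcl5 a chemokine for neutrophils. Those most like Cd55 were Smpd3 (0.96), Icam1 (0.95) and Stat5b (0.95). Those most like Serping1 were Pdgfrb (0.98), a receptor of pericytes and fibroblasts, Il17ra (0.93) and Lyve1 (0.93). For C1qbp the highest were lower, at 0.81 for F13a1, 0.78 for Ccr2 and 0.76 for H2-M3. These values were picked as the highest among 441 genes, so they run high by selection, and no p is given. They also share the scale factor of each sample. After removal of each tumour's median level, r lay between 0.87 and 0.99 for the genes named beside Cfi, Cd55 and Serping1, and was 0.53 for F13a1, 0.53 for Ccr2 and 0.82 for H2-M3.

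C1qbp encodes a mitochondrial protein that also binds the globular heads of C1q. Its level was 10.50, 10.74, 10.61, 10.37 and 10.50 in SCID tumours 1 to 5, against 10.52, 10.32, 10.29, 10.38 and 10.41 in WT tumours 1 to 5. The line had 11.02 and 10.98. It was the steadiest of the 4 genes detected in each tumour, with an SD of 0.14 in SCID tumours and 0.09 in WT tumours, and both line samples lay above every tumour. C1qbp was lower than in the line by a log2 difference of -0.45 (SE 0.16, adjusted p = 0.0344) in SCID tumours and -0.59 (SE 0.17, adjusted p = 0.00885) in WT tumours.

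The call for SCID tumours was lost without SCID tumour 1 (adjusted p = 0.0567), SCID tumour 4 (0.0665), line sample 1 (0.166) or line sample 2 (0.129), and that for WT tumours without line sample 1 (0.0626). Between hosts the log2 difference of C1qbp was 0.14 (SE 0.14, 95% interval -0.18 to 0.45, adjusted p = 0.552).

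Cd59b is one of the paired mouse Cd59 genes, whose products block the last steps of pore assembly. It gave 23 to 31 counts in SCID tumours, 20 to 35 in WT tumours and 18 and 20 in the line, at or below background in each sample. As deposited, limma nevertheless called it higher than in the line in SCID tumours (adjusted p = 0.00316) and in WT tumours (0.000709), while TMM factors ended both calls (0.301 and 0.443) and median scaling turned both differences negative. The background level itself lies 0.54 higher on the log2 scale in SCID tumours and 0.64 higher in WT tumours than in the line, because of the scale factors, so no fold is given. Between hosts it was not called (adjusted p = 0.459).

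Masp1 encodes a protease that travels with mannose-binding lectin and ficolins and starts the lectin pathway. It gave 35, 21, 32, 22 and 32 counts in SCID tumours 1 to 5, against 27, 53, 66, 23 and 41 in WT tumours 1 to 5. The line gave 148 and 114 counts. Both line samples lay above every tumour, and the 5 SCID tumours were at background. On the log2 scale the means were 4.83 ± 0.45 in SCID tumours (SD, n = 5), 5.27 ± 0.69 in WT tumours (SD, n = 4) and 6.52 ± 0.30 in the line (SD, n = 2).

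Masp1 was at least 2.42-fold lower in SCID tumours than in the line (adjusted p = 0.00454), and lower in WT tumours by a log2 difference of -1.25 (SE 0.42, adjusted p = 0.0203), where 2 of the 4 WT values were above background and the size is uncertain. Both calls were lost without line sample 1 (adjusted p = 0.0577 for SCID and 0.136 for WT tumours). SCID and WT tumours were not called different (log2 difference -0.44, SE 0.34, adjusted p = 0.41), and the 2 WT tumours with the highest levels are the pair counted as 1 sample. Masp2, the protease that cleaves C4 and C2, gave 9 to 18 counts in SCID tumours, 12 to 20 in WT tumours and 18 and 19 in the line, at background throughout, and was not called in any comparison (adjusted p = 0.188, 0.975 and 0.165).

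C6 and C7 encode neighbouring steps of the membrane pore, and their genes lie close together on chromosome 15, with 1 protein-coding gene between them in RefSeq. C6 gave 20, 30, 37, 29 and 31 counts in SCID tumours 1 to 5, against 47, 35, 40, 51 and 67 in WT tumours 1 to 5, and 10 and 12 in the line. On the log2 scale it averaged 4.88 ± 0.31 in SCID tumours (SD, n = 5) and 5.77 ± 0.25 in WT tumours (SD, n = 4). On that scale every SCID tumour lay below every WT tumour.

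C6 was at least 1.44-fold lower in SCID than in WT tumours (limma log2 difference -0.88, SE 0.20, adjusted p = 0.016; exact permutation test, two-sided p = 0.00794, the smallest this design allows). The call was lost without WT tumour 5 (adjusted p = 0.0558), the tumour with the highest C6. It was also lost with TMM factors (-0.54, adjusted p = 0.0744) and after scaling to the median of all genes (-0.28, adjusted p = 0.28). C6 was at least 2.08-fold higher in WT tumours than in the line (limma adjusted p = 2.33e-06). Both bounds hold for the deposited scale only. After median scaling the log2 difference of WT tumours from the line was 0.21 (limma adjusted p = 0.381). In SCID tumours against the line C6 passed the test as deposited (adjusted p = 4.28e-05) with both groups at background, so no fold is given.

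The T cell markers were lower in SCID tumours in 8 of 10 cases, with summed levels of 152 to 221 in SCID tumours against 338 to 594 in WT tumours. Of the 10, 6 were above background in any WT value and 1 in any SCID tumour, so not all of the 8 were detected. The SCID sums lay near those of the line, 119 to 128, and are largely background. Of the 7 pan-leukocyte markers 2 were lower, with sums of 618 to 1220 against 1140 to 1880. None of 9 fibroblast and matrix, 8 endothelial or 9 macrophage markers was called. Of 5 neutrophil markers 1 was lower, with sums of 189 to 409 in SCID tumours against 251 to 919 in WT tumours, and of 6 epithelial tumour cell markers 1 was higher. The part of these cells in the C6 difference was not tested. C7 gave 4 to 13 counts in SCID tumours, 5 to 16 in WT tumours and 7 and 9 in the line, at background throughout, and was not called in any comparison (adjusted p = 0.673, 0.344 and 0.158).

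**Figure D3:**
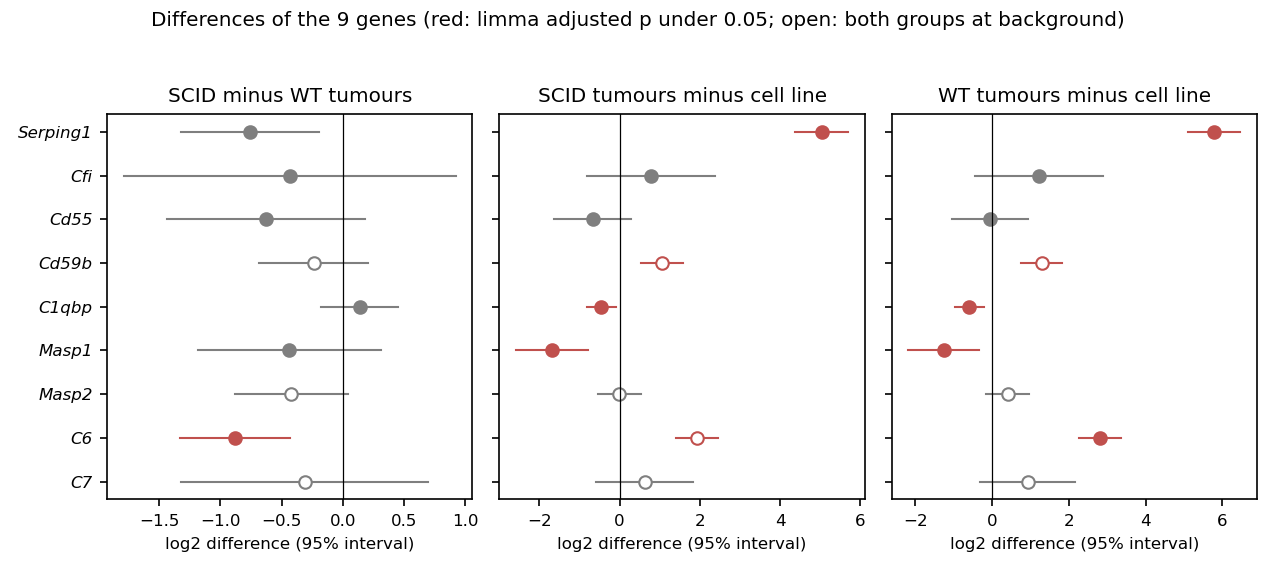
Log2 difference of each of the 9 genes with its 95% interval from limma (horizontal axis) for SCID minus WT tumours, SCID tumours minus the line and WT tumours minus the line. Red marks an adjusted p under 0.05 and open circles a gene at background in both groups: C6 is red in the first panel, and Serping1, Cd59b, C1qbp, Masp1 and C6 in the other 2.

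Set beside the panel, the share of the 9 genes called between hosts was near that of all genes. In SCID against WT tumours 1 of the 9 was lower and 0 were higher, where 15.7% of the 750 genes were lower and 0.133% higher, and the median log2 difference was -0.43 over the 9 genes and -0.33 over all genes. In SCID tumours against the line 5 of the 9 were called, 3 higher and 2 lower, where 54.4% of all genes were called, 51.6% higher and 2.8% lower. In WT tumours against the line 5 were again called, 3 higher and 2 lower, where 69.7% of all genes were called, 67.1% higher and 2.67% lower. The median difference from the line was 0.62 in SCID tumours and 0.93 in WT tumours, beside 0.81 and 1.21 over all genes. Of the 3 higher genes, Cd59b and, in SCID tumours, C6 were at background on both sides. Both comparisons share the line samples.

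Of 28 other complement genes measured, 3 were lower in SCID than in WT tumours, 0 were higher and 25 were not called, with a median log2 difference of -0.435 beside -0.33 over all genes. The 3 were the central component C3, the protease precursor C2 (log2 difference -1.18, SE 0.35, adjusted p = 0.0446) and C3ar1, a receptor for C3a (-0.96, SE 0.21, adjusted p = 0.013). C2 averaged 6.39 ± 0.64 in SCID tumours (SD, n = 5) and 7.57 ± 0.49 in WT tumours (SD, n = 4). Cfd, which encodes the protease factor D, differed by 0.91 (SE 0.98, adjusted p = 0.57), and the integrin genes Itgb2 and Itgax by -0.82 (SE 0.27, adjusted p = 0.0672) and -0.75 (SE 0.27, adjusted p = 0.0857). C8a was at background in both groups. Against the line, 18 of the 28 were higher in SCID tumours and 22 in WT tumours, and 0 were lower in either. Over all genes 51.6% were higher in SCID tumours and 67.1% in WT tumours. The calls include genes at background in both groups compared: Hc for each host, and C8a and Cr2 for WT tumours.

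**Figure D4:**
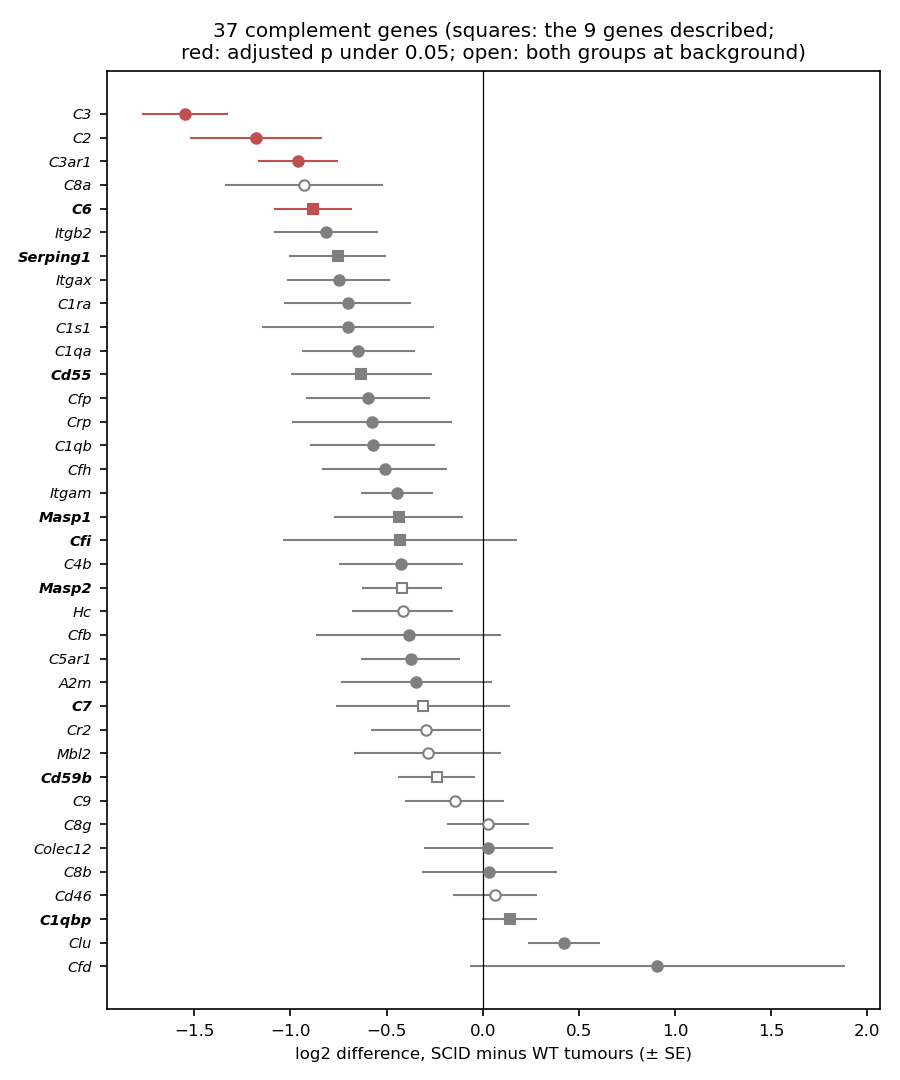
Log2 difference of SCID minus WT tumours with its SE (horizontal axis) for 37 complement genes, sorted by size. Squares and bold names are the 9 genes described, red marks an adjusted p under 0.05 and open symbols genes at background in both groups: C3, C2, C3ar1 and C6 are red.

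Scaling moved these values. The median log2 difference over all genes was -0.33 for SCID against WT tumours as deposited, -0.28 after scaling on 50 widely expressed genes, -0.0045 with TMM factors and 0.28 after scaling to the median. For the line it was 0.81 in SCID and 1.21 in WT tumours as deposited, and -1.20 and -1.40 after median scaling. Calls over all genes moved with it: between hosts 1 was higher and 118 lower as deposited, 10 and 56 with TMM factors, and 49 and 37 after median scaling. In SCID tumours against the line 387 were higher and 21 lower as deposited, 206 and 119 with TMM factors, and 101 and 481 after median scaling, and in WT tumours 503 and 20, 246 and 148, and 106 and 483. Under each of these 4 scalings Serping1 stayed higher in tumours of both hosts than in the line, and C1qbp and Masp1 stayed lower, with each call kept and sizes that moved. The log2 difference of C1qbp was -1.17 in SCID and -1.63 in WT tumours with TMM factors, and -2.45 and -3.20 after median scaling. That of Masp1 was -2.36 in SCID and -2.25 in WT tumours with TMM factors, and -3.69 and -3.86 after median scaling. Between hosts, median scaling left -0.15 for Serping1, -0.03 for Cd55 (adjusted p = 0.956) and -0.28 for C6, none of them called, whereas Cfi and Masp1 turned to 0.17 and 0.17 after median scaling (adjusted p = 0.848 and 0.737). C1qbp was called higher in SCID than in WT tumours after median scaling (0.74, adjusted p = 0.0431). The C6 difference from the line kept its calls under 3 scalings and lost them after median scaling, at -0.07 in SCID and 0.21 in WT tumours (adjusted p = 0.777 and 0.381).

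**Figure D5:**
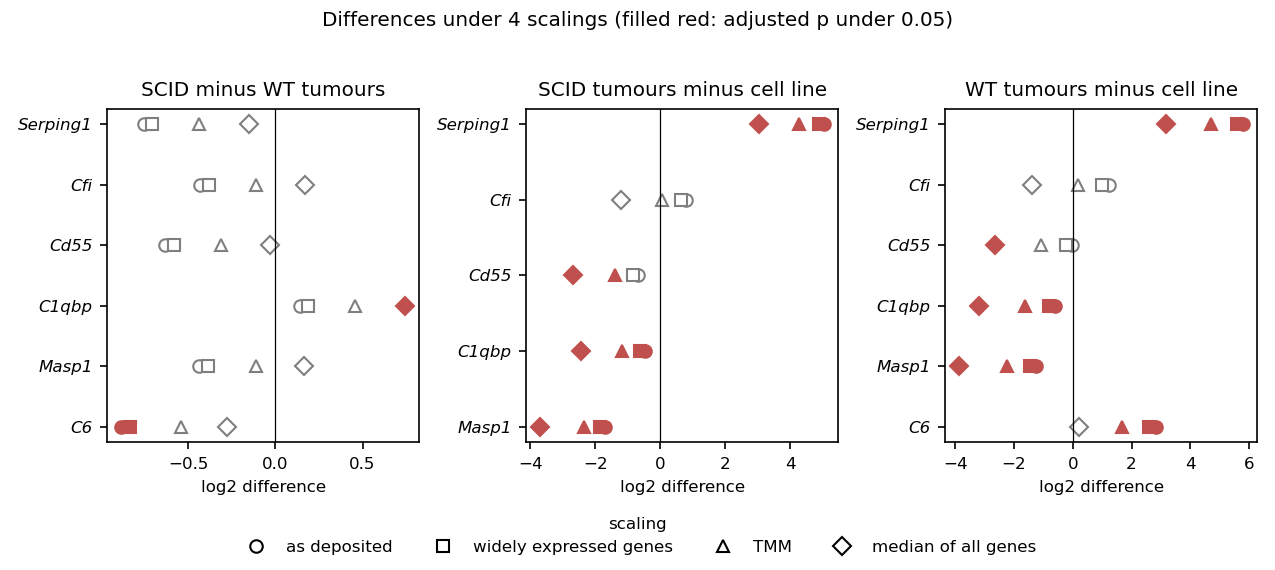
Log2 differences (horizontal axis) under 4 scalings for the genes detected in at least 1 of the 2 groups compared; filled red symbols have an adjusted p under 0.05. Serping1 lies between 3.03 and 5.79 in tumours against the line, and the difference of C6 between hosts is red as deposited and on widely expressed genes.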

How the data were processed

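The authors deposited normalized log2 values of 750 genes and a table of linear signal for 749 genes. The sources used here do not name the software, the normalization genes or any background correction. Total RNA was extracted with a PureLink kit, per the labels' protocols. The log2 values equal log2 of the deposited signal (largest difference 5.4e-09). Within each sample 100% of values were whole multiples of 1 step (tolerance 0.02 counts, widened in proportion for large counts). Division by the step gave probe counts, taken as such here although the steps are inferred from the values. A separate check did not accept whole counts for some columns. Background was set at 37.05 counts (37 lymphocyte genes, 95th percentile, line samples), times each sample's factor. Where the dimmer group was at background, the fold is "at least": the brighter mean against the mean of background levels. The host comparison was fitted with limma 3.58.1 (lmFit, eBayes, two-sided, no covariate), and the 2 comparisons with the line in 1 fit over 3 groups, with Benjamini-Hochberg over 750 genes and a threshold of 0.05. The 9 genes, the lists and the averaging of WT tumours 2 and 3 were chosen with earlier results of these data known. Named genes were the 9, other complement genes past the threshold between hosts and the 4 next by size, and the 3 most alike in deviations from host means, of which 1 is not reported here. The fits were tested on simulated data with known changes. For log2 changes of 1, 69% were called between hosts, 53% for SCID and 63% for WT tumours against the line. Of all calls, 2.91%, 5.96% and 2.48% were false, in the same order. A gene not called may thus still differ. Columns of samples outside the series numbered 0. Promoter windows are RefSeq's, GRCm38.p6. Alternatives covered scaling, background, filters, the variance trend, blocks and each sample left out.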

Additional observations from a re-analysis of the deposited data

Results flagged for a closer look

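The Cd55 level of WT tumour 1 was 6.53, far from the other 3 WT values, which reached up to 8.25. Its gap to the nearest was 0.855 of the group's range, above Dixon's 95% critical value for 4 samples. Of 18 groups of values tested, 1 passed this limit, and chance alone passes about 1 in 20. Cfi was lowest in the same tumour, at 7.65, with a gap of 0.777 of the range, below the limit.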

How the results depend on the processing

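The number of the 9 genes called between hosts was 1. It was 2 with WT tumours 2 and 3 as separate samples, 2 in the larger title series alone (titles whose number begins with 16), 2 with WT tumour 1 and SCID tumour 5 both left out, 0 with TMM factors, 1 after median scaling (C1qbp in place of C6), and 0 to 2 when samples were left out in turn (0 without WT tumour 5; 2 with Serping1 without SCID tumour 5 and with Cd55 without WT tumour 1). Against the line 5 were called for each host, and 3 to 5 for SCID and 3 to 6 for WT tumours when samples were left out (3 without line sample 1, 6 with Cfi without WT tumour 1). Median scaling and values raised to background each gave 7 for each host (adding C7 and Masp2; with median scaling also Cd55, without C6). Raised to background, Cd59b, Masp2 and C7 held only the background level of each sample, as did C6 in SCID tumours and the line. Differences of such values are the gap of background levels (0.536 for SCID and 0.64 for WT tumours), so these calls say nothing about the genes. With median scaling Cd55 and Cd59b were called lower than in the line. Over all genes 119 were called between hosts, against 66 with TMM factors, 65 with values raised to background, 67 without WT tumour 5 and 195 without both WT tumour 1 and SCID tumour 5. After median scaling the difference reversed for Cfi (0.172 between hosts, -1.21 for SCID and -1.39 for WT tumours against the line), Masp1 between hosts (0.165), Cd59b against the line (-0.953 for SCID and -1.32 for WT tumours) and C6 in SCID tumours against the line (-0.0683). Cd55 in WT tumours against the line turned to 0.0246 with WT tumours 2 and 3 apart. It turned to 0.35 once WT tumour 1 was dropped, with SCID tumour 5 either kept or dropped. This Cd55 difference ranged from -0.224 to 0.35 when samples were left out. The causes were not tested. Replicate numbers do not pair the tumours: same-numbered deviations correlated at -0.412 to 0.242. With the replicate number as a block, C6 kept its call between hosts (adjusted p = 0.013), while C1qbp in SCID tumours (0.118) and Masp1 in WT tumours (0.079) lost theirs against the line, and Serping1 between hosts, called with WT tumours 2 and 3 apart, was not (0.0958). The planned tests on recovered counts were not run, because whole counts were not accepted for 6 columns in a check of the values. Values near 37.05 counts limit C6 and Masp1, and folds of Cd59b, Masp2 and C7 cannot be given at this depth. The number of line samples, 2, and their spread near that of a repeat measurement limit each comparison with the line.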
